A study of Mus musculus with 6 samples.

Results

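Non-homologous end joining rejoins the ends of a broken DNA double strand directly, without a sister chromatid as template. The Ku heterodimer, encoded by Xrcc6 and Xrcc5, threads onto each end and recruits the kinase DNA-PKcs (Prkdc). The nuclease Artemis (Dclre1c) trims ends, the polymerases lambda (Poll) and mu (Polm) fill gaps, and ligase IV (Lig4) seals the break together with XRCC4 (Xrcc4), XLF (Nhej1) and PAXX (Paxx). The pathway works throughout the cell cycle and is the main route of break repair in cells that divide little, as chondrocytes do in adult cartilage.

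These 10 genes were taken by symbol from count tables that list 55377 genes. Each of the 10 symbols stood in a single row of every table, and all 10 passed the filter on low counts. The libraries came from primary cultures of mouse articular chondrocytes, the cells that make cartilage matrix, harvested 36 h after transfection. One set received an siRNA against Irf1, which encodes the interferon-induced transcription factor interferon regulatory factor 1 (3 libraries, genotype labelled Irf1-knockdown). The other set received a control siRNA (3 libraries, genotype labelled control). The sources used here do not give the mouse strain, sex or age, nor the siRNA sequences. The labels do not say whether replicates came from separate cultures or mice, and p-values therefore cover only the spread between these libraries, which may be technical.

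Total counts ran from 22349142 to 26752065 in the Irf1 siRNA libraries and from 28565096 to 29282494 in the control siRNA libraries, so every knockdown library was the shallower. Irf1 itself had 125, 140 and 141 counts with Irf1 siRNA against 312, 355 and 362 with control siRNA, a fold of 0.465 (adjusted p = 3.0e-06 in edgeR). All 10 chondrocyte markers searched, among them Col2a1, Acan and Sox9, were tested, and their summed level was 83300 to 111000 CPM (counts scaled to library size, with TMM factors) with Irf1 siRNA and 84000 to 112000 CPM with control siRNA. Hapln1, a link protein of cartilage matrix, was the 1 marker of that list that was lower, and 0 were higher. End joining also assembles antigen receptor genes in lymphocytes, and of the markers of those cells Cd3e and Rag2 were at 0 in all libraries and Ms4a1 and Rag1 were under 10 counts in all. Of 5 macrophage markers, only Cd14 and Cd68 were tested, and both were higher. Adgre1 was at 0, and Csf1r and Ptprc did not pass the filter on low counts. The sum over the list was 16.9 to 17.8 CPM with Irf1 siRNA against 11.1 to 14.7 CPM with control siRNA. Of 5 mural and smooth muscle markers, 3 were tested, and Acta2 and Cnn1 were lower (sum 1020 to 1140 CPM with Irf1 siRNA against 1420 to 1580 CPM with control siRNA). Of 5 fibroblast markers, 3 were tested, and Col1a1 was lower (sum 3060 to 3830 CPM with Irf1 siRNA against 4100 to 5020 CPM with control siRNA). Of 5 osteoblast markers, 3 were tested and 0 passed, while their summed level did not overlap (54.1 to 79.9 CPM with Irf1 siRNA against 82.3 to 108 CPM with control siRNA). The same held for 4 skeletal muscle markers, with 1 tested and 0 passing (7.22 to 8.96 CPM with Irf1 siRNA against 9.2 to 9.5 CPM with control siRNA). Myog was at 0 and Myod1 and Ckm were under 10 counts in all, so that sum rests almost wholly on Acta1. The part of such cells in the values below was not tested. In bulk RNA, fewer cells of a type and less RNA per cell cannot be told apart.

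With Irf1 siRNA, 2 of the 10 end joining genes were lower and 0 were higher at an adjusted p under 0.05. The 2 were Poll, the gap-filling polymerase, and Dclre1c, the nuclease Artemis, and both changes were small, with folds of 0.804 and 0.760. The genes for the core machinery, that is both Ku subunits, DNA-PKcs, ligase IV, XRCC4, XLF and PAXX, did not pass the threshold, and neither did Polm. The share of 2 in 10 lies close to the background: 22.4% of 14683 tested genes changed, 12% lower and 10.4% higher. The median log2 fold change was -0.10 over the 10 members and 0.00 over all tested genes, and 7 of the 10 members had a negative value. The test was edgeR's quasi-likelihood test on all genes, with p-values adjusted over all of them. With all libraries, 0 members were higher at an unadjusted p under 0.05, and DESeq2 called 0 members after adjustment, with 2 lower and 0 higher at an unadjusted p under 0.05. Without 1 library the count was 0 (Irf1 siRNA replicate 2 or 3, or control siRNA replicate 1 or 3) or 1 (Irf1 siRNA replicate 1 or control siRNA replicate 2). Without Irf1 siRNA replicate 1, 3 members were lower and 1 was higher at an unadjusted p under 0.05.

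**Figure D1:**
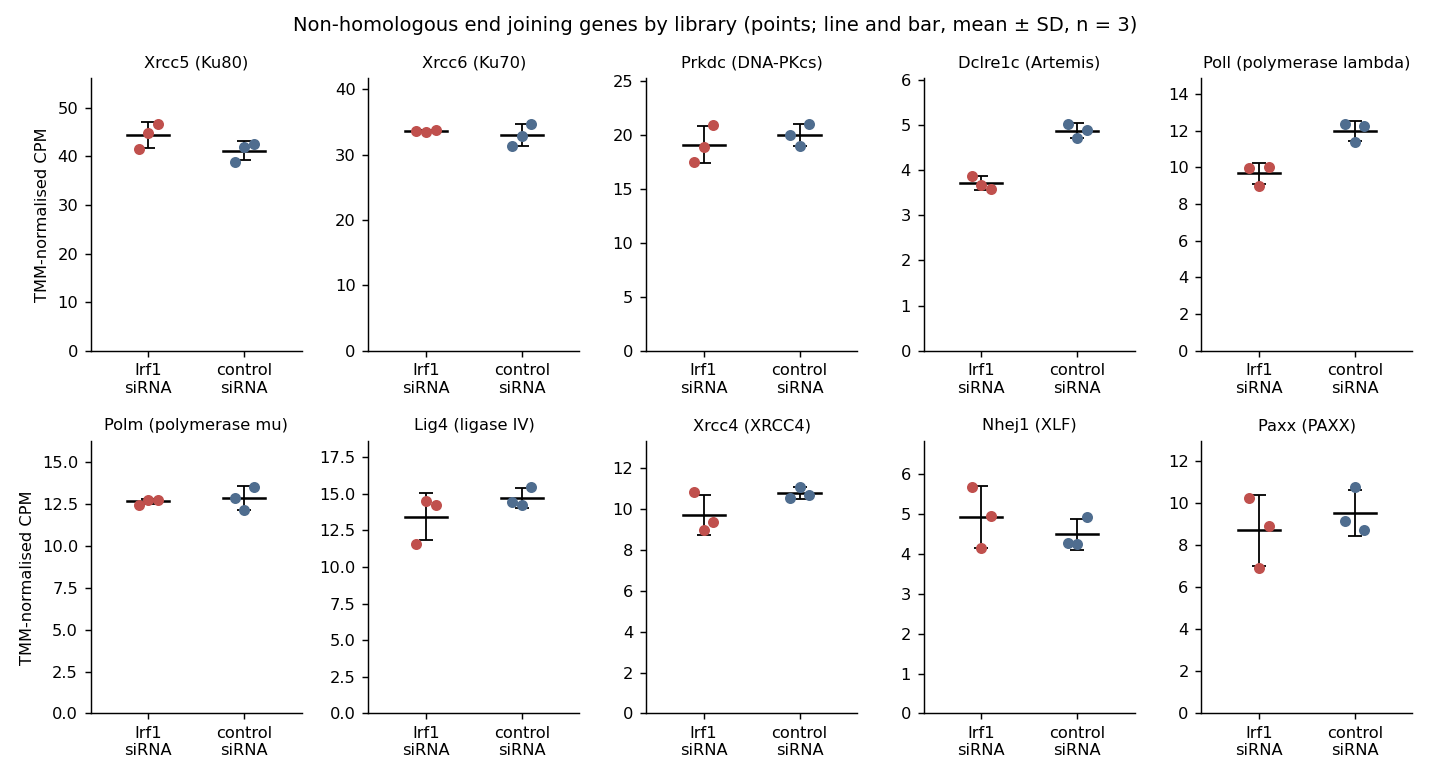
TMM-normalised CPM of the 10 end joining genes in each library, Irf1 siRNA left and control siRNA right of each panel, with points for libraries and lines and bars for the mean ± SD of 3. The groups are apart for Dclre1c (3.59 to 3.88 against 4.72 to 5.03 CPM) and Poll (9.01 to 10.04 against 11.4 to 12.4 CPM), and they overlap for the other 8 genes.

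The Ku genes, whose products bind the ends first, had the highest mean levels of the members, in CPM and per length. Xrcc5 (ENSMUSG00000026187.10), which encodes Ku80, had 41.5, 44.9 and 46.7 CPM with Irf1 siRNA against 39.0, 42.0 and 42.6 CPM with control siRNA. These ranges overlap, and the log2 fold change of 0.11 (SE 0.07, 95% interval -0.03 to 0.25) did not pass the threshold (adjusted p = 0.273). Xrcc6 (ENSMUSG00000022471.15), which encodes Ku70, had 33.6, 33.4 and 33.7 CPM with Irf1 siRNA against 31.4, 32.8 and 34.7 CPM with control siRNA. The knockdown libraries lay inside the control range, with a log2 fold change of 0.03 (95% interval -0.11 to 0.17, adjusted p = 0.818). These intervals leave room for a fold of 0.977 to 1.19 for Xrcc5 and of 0.924 to 1.12 for Xrcc6.

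The ratio of Xrcc5 to Xrcc6 counts within a library does not depend on scaling. It was 1.23, 1.34 and 1.39 with Irf1 siRNA against 1.24, 1.28 and 1.23 with control siRNA, for products that sit in the same heterodimer. The groups overlap, and the two-sided exact permutation test gave p = 0.3, where 3 against 3 libraries cannot give less than 0.1.

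Ku bound to DNA recruits DNA-PKcs, which in turn activates Artemis. Prkdc (ENSMUSG00000022672.9) had 17.5, 18.9 and 20.9 CPM with Irf1 siRNA against 19.98, 18.97 and 21.03 CPM with control siRNA, and the groups overlap (log2 fold change -0.07, 95% interval -0.25 to 0.11, adjusted p = 0.623). Dclre1c (ENSMUSG00000026648.19) had 86, 101 and 84 counts, or 3.88, 3.67 and 3.59 CPM, with Irf1 siRNA, against 141, 133 and 145 counts, or 5.03, 4.72 and 4.90 CPM, with control siRNA. Every knockdown library lay below every control library, as happened for 38.1% of all tested genes in either direction and for 2 of the 10 members. Dclre1c averaged 3.71 ± 0.152 CPM with Irf1 siRNA and 4.88 ± 0.157 CPM with control siRNA (SD, n = 3 each). Its log2 fold change was -0.40 (SE 0.13, 95% interval -0.67 to -0.12, adjusted p = 0.0408 in edgeR). Dclre1c was, with Nhej1, 1 of 2 members averaging under 5 CPM in both groups. Its call sat at the edge of the threshold and was lost without any 1 of the 6 libraries (adjusted p of 0.0595 to 0.118), although the log2 fold change stayed between -0.43 and -0.37 under every alternative that tested it. It was also lost with DESeq2 (0.106), with upper-quartile scaling (0.0533), with library totals alone (0.0559) and with no filter (0.0588).

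The Dclre1c transcript carries the single match, among the 10 members, to any of 4 words of 7 bases that were searched in 3′ untranslated regions. Dclre1c also had the longest such region of the 10, 5176 bases against 167 to 2440 bases for the other 9 members, and a longer region holds more chances of a match. The first word was ACTGATC, the second word was CTGATCA, the third word was GCTATCT and the last word was CTATCTA. These words were picked with earlier results of these same libraries known, so the match describes Dclre1c and supports nothing about it. For the same reason, the shares of lower, higher and other genes with a word describe these libraries and are not independent support. In GENCODE M21 sequences, a word was present in 22.8% of 12756 tested genes with a 3′ untranslated region of at least 50 bases and in 43.8% of the lower genes, 14.2% of the higher genes and 20.3% of the others, with no account taken of region length. Of the genes of the wider pathway that changed, Rnf168 and Wrn also held a word, while Mdc1, Lig3, Parp2 and Tdp2 held none. Poll, the other lower member, held none either. The part of these words in the falls was not tested. The 3 sites are shown 5′ to 3′ in the sense strand of the transcript, with the word in capitals, because they lie in 3 of the 7 genes that fell among the members and the wider pathway.
Dclre1c: gagctgccttCTATCTAgatttcaagg
Rnf168: gtatatttttACTGATCttgtctagaa
Wrn: atttttgataCTATCTAaagtttcatc

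Both end joining polymerases fill gaps at broken ends, polymerase lambda mostly with a template strand to copy and polymerase mu also across unpaired ends. Poll (ENSMUSG00000025218.7) had 9.98, 9.01 and 10.04 CPM with Irf1 siRNA against 12.4, 11.4 and 12.3 CPM with control siRNA, from 221 to 248 and 321 to 363 counts. The groups do not overlap. Poll averaged 9.67 ± 0.578 CPM with Irf1 siRNA and 12.01 ± 0.543 CPM with control siRNA (SD, n = 3 each), and fell with a log2 fold change of -0.31 (SE 0.09, 95% interval -0.51 to -0.11, adjusted p = 0.0254 in edgeR). The fall no longer passed after leaving out Irf1 siRNA replicate 2 (adjusted p = 0.0929), Irf1 siRNA replicate 3 (0.0515), control siRNA replicate 1 (0.0791) or control siRNA replicate 3 (0.0678), and with DESeq2 (0.0513). Over all 13 alternatives its adjusted p ran from 0.0175 to 0.0929.

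Polm (ENSMUSG00000020474.12) had 12.5, 12.8 and 12.7 CPM with Irf1 siRNA against 12.9, 12.1 and 13.5 CPM with control siRNA. The knockdown libraries lay within the control range, and the log2 fold change was -0.02 (95% interval -0.21 to 0.16, adjusted p = 0.881). Whether the 2 polymerases differed was read from the ratio of Poll to Polm counts within each library, a ratio picked after the values were seen. It was 0.801, 0.707 and 0.789 with Irf1 siRNA against 0.961, 0.939 and 0.905 with control siRNA, so the groups were apart, by a log2 difference of -0.29. The exact permutation test gave p = 0.1, the smallest that this design allows, and 0.2 after adjustment over the 4 ratios computed, so it cannot reach the threshold. The ratio of Dclre1c to Prkdc counts, picked in the same way, was 0.223, 0.195 and 0.172 with Irf1 siRNA against 0.252, 0.249 and 0.233 with control siRNA (log2 difference -0.32, exact permutation p = 0.1, adjusted p = 0.2).

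**Figure D2:**
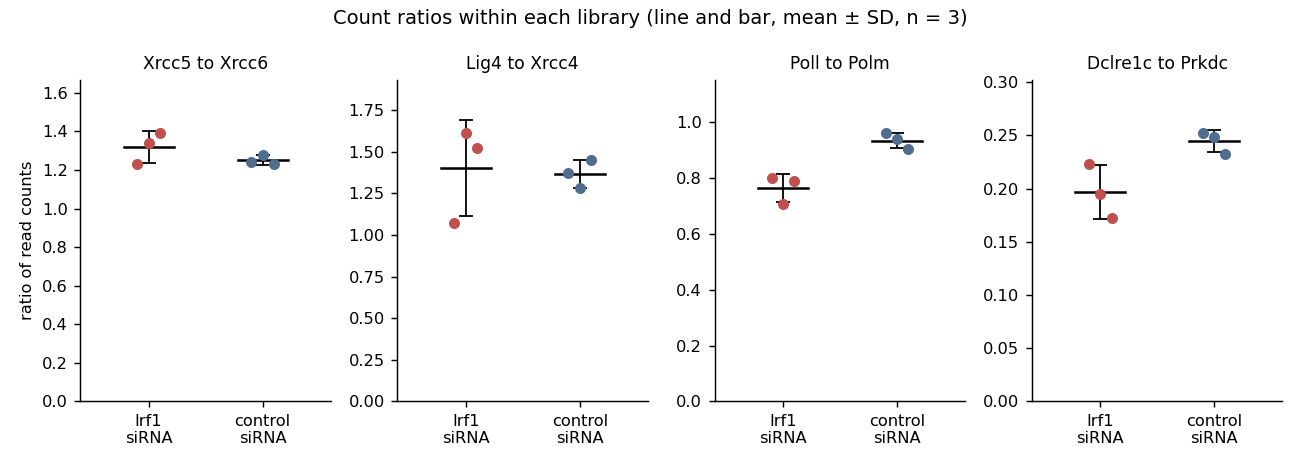
Ratio of read counts between pairs of end joining genes within each library (vertical axis, no unit, starting at 0), Irf1 siRNA left and control siRNA right, with points for libraries and lines and bars for the mean ± SD of 3. The Poll to Polm and Dclre1c to Prkdc ratios are lower in all 3 Irf1 siRNA libraries, while the Xrcc5 to Xrcc6 and Lig4 to Xrcc4 ratios overlap.

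The last step of the pathway is ligation. Lig4 (ENSMUSG00000049717.10) had 11.6, 14.5 and 14.3 CPM with Irf1 siRNA against 14.5, 14.3 and 15.5 CPM with control siRNA. Xrcc4 (ENSMUSG00000021615.14), whose product holds and stabilises ligase IV, had 10.8, 8.97 and 9.35 CPM with Irf1 siRNA against 10.5, 11.1 and 10.7 CPM with control siRNA. Both overlap between groups and in each case Irf1 siRNA replicate 1 stood apart from its fellows, low for Lig4 and high for Xrcc4. The log2 fold changes were -0.13 for Lig4 (95% interval -0.33 to 0.08, adjusted p = 0.376) and -0.15 for Xrcc4 (95% interval -0.37 to 0.06, adjusted p = 0.306). The ratio of Lig4 to Xrcc4 counts was accordingly 1.07, 1.61 and 1.52 with Irf1 siRNA and 1.37, 1.28 and 1.45 with control siRNA, with an exact permutation p of 1. That ratio had a spread of 0.32 (SD, log2) with Irf1 siRNA and 0.09 with control siRNA.

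XLF and PAXX are relatives of XRCC4 that bridge the ends. Nhej1 (ENSMUSG00000026162.9) had 5.69, 4.14 and 4.95 CPM with Irf1 siRNA against 4.28, 4.26 and 4.93 CPM with control siRNA (log2 fold change 0.13, 95% interval -0.18 to 0.43, adjusted p = 0.586). Paxx (ENSMUSG00000047617.12) had 10.3, 6.90 and 8.93 CPM with Irf1 siRNA against 9.13, 10.8 and 8.71 CPM with control siRNA (log2 fold change -0.14, 95% interval -0.43 to 0.14, adjusted p = 0.493). For both, the SD of the knockdown libraries (0.774 and 1.69 CPM) exceeded the difference between the group means. The 95% intervals run from a fold of 0.88 to 1.35 for Nhej1 and from 0.742 to 1.11 for Paxx.

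Levels can be set side by side between genes only per length, so CPM was divided by the exon length in GENCODE M21. Xrcc5 stood highest, at 17.4 ± 1.04 CPM per kb with Irf1 siRNA and 16.1 ± 0.768 with control siRNA, higher than 81.7% of tested genes. Xrcc6 followed at 7.5 CPM per kb with Irf1 siRNA and 7.36 with control siRNA, and the values below keep that order. Poll (4.16 and 5.17), Paxx (4.21 and 4.62) and Nhej1 (4.41 and 4.01 CPM per kb) came next in the control order, and neighbours among these 3 overlapped in the control libraries. Below them lay Polm (3.46 and 3.51), Lig4 (2.59 and 2.83), Xrcc4 (2.31 and 2.56) and Prkdc (1.45 and 1.52 CPM per kb), each apart from the next in the control libraries. Dclre1c was lowest, at 0.399 and 0.524 CPM per kb, above 14.3% of tested genes. The longest coding transcript was also used as the length in place of all exons. Xrcc5, Xrcc6, Prkdc and Dclre1c then kept their places and Paxx moved up to the third, at 8.86 and 9.73 CPM per kb. Paxx overlapped Xrcc6 (10.2 and 10 CPM per kb) in the control libraries. In the control order, Xrcc4 (2.84 and 3.15) then came before Lig4 (2.68 and 2.93), and Polm (4.32 and 4.39) before Nhej1 (4.68 and 4.26). Each of these pairs overlapped in the control libraries.

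**Figure D3:**
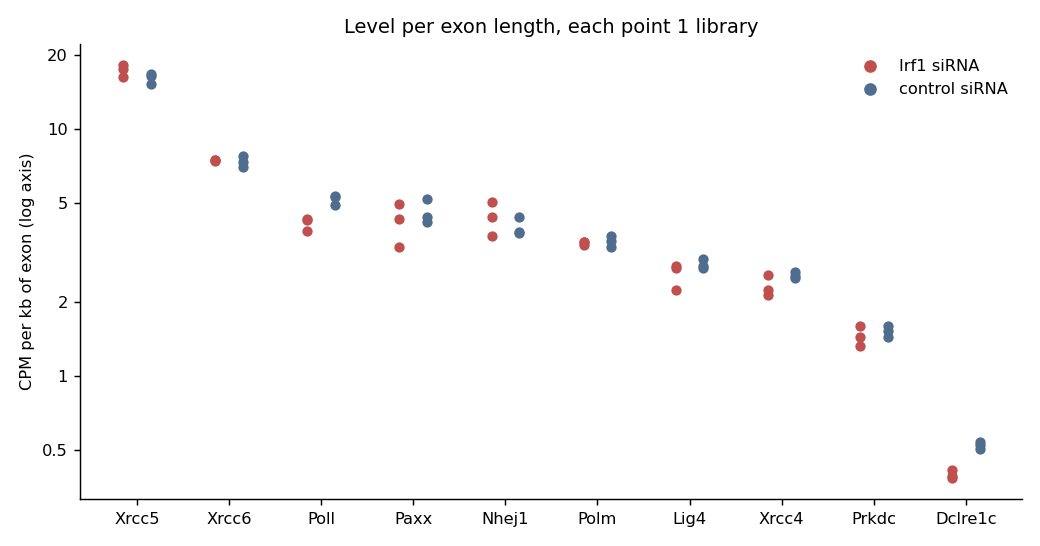
Level of each end joining gene in CPM per kb of exon (log axis), each point 1 library, Irf1 siRNA left and control siRNA right within each gene, with genes ordered by the control mean. Xrcc5 lies highest (15.2 to 18.3 over all 6 libraries) and Dclre1c lowest (0.385 to 0.54).

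The upstream sequence of the members was read for an interferon response element core, the kind of element that interferon regulatory factors bind. RefSeq windows (GRCm38.p6) of 250 bases before the start were at hand for 8 of the 10 members, in 9 windows since Lig4 has 2, and not for Prkdc and Poll. The core GAAANNGAA, on either strand, was present in 1 of the 9 windows, that of Xrcc5, and in 7.13% of 32851 windows in all. The STAT element TTCNNNGAA was in 0 of the 9 and in 7.02% of all windows. The NRF1 element TGCGCATGC was in 1 of the 9, a window of Lig4, and in 1.28% of all windows. A CCAAT box was in 3 of the 9 (33.8% of all), among them 3 copies in that of Dclre1c, and a GC box (GGGCGG) in 7 of the 9 (32.7% of all). A match is a run of letters and not a shown binding site. The Xrcc5 window is printed because it alone holds the interferon core, and the Dclre1c window because that gene was lower and has none. Capitals mark CCAAT boxes and the interferon core on either strand, read 5′ to 3′ toward the gene. In Xrcc5 a CCAAT box and the core lie end to end.
Xrcc5, chr1:72307171-72307420, plus strand: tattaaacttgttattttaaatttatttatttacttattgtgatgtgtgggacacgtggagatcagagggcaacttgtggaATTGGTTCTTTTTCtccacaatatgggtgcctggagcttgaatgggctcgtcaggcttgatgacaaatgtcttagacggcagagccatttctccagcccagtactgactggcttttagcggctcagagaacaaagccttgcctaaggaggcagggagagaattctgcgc
Dclre1c, chr2:3423881-3424130, plus strand: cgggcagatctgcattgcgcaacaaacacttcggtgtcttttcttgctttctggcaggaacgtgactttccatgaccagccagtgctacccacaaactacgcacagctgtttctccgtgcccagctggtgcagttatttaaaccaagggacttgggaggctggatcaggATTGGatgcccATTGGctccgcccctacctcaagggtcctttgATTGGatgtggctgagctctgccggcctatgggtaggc

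Both lower members have a close neighbour on the opposite strand that was lower too. Neighbours were looked up after the values were seen, and 12% of all tested genes were lower. In GENCODE M21, the 3′ end of Dclre1c overlaps that of Suv39h2, a histone methyltransferase gene, with 357 bases shared between exons. Suv39h2 had 5.15, 6.61 and 4.95 CPM with Irf1 siRNA against 7.28, 7.30 and 8.41 CPM with control siRNA (log2 fold change -0.45, SE 0.13, adjusted p = 0.0217 in edgeR). Since the strand setting of the counting is not given, reads from these shared bases cannot be assigned to either gene, and their share in the fall of Dclre1c was not tested. Poll and DPCD start 83 bases apart and are read away from each other, with no shared exon bases. DPCD had 10.6, 12.4 and 11.6 CPM with Irf1 siRNA against 12.6, 14.9 and 14.6 CPM with control siRNA (log2 fold change -0.28, SE 0.10, adjusted p = 0.0485 in edgeR). Suv39h2 missed the threshold when Irf1 siRNA replicate 1 (adjusted p = 0.0687), Irf1 siRNA replicate 3 (0.104) or control siRNA replicate 3 (0.0783) was left out. The DPCD call was lost without Irf1 siRNA replicate 1 (0.146) or 3 (0.114), without control siRNA replicate 2 (0.171) or 3 (0.124), with DESeq2 (0.0817) and with each other scaling (0.0505 to 0.0908).

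Other members also have neighbours within 1000 bases. Prkdc lies back to back with Mcm4, a replication helicase gene, at a distance of 465 bases (log2 fold change of Mcm4 0.03, adjusted p = 0.824), and Lig4 with Abhd13 at 20 bases (-0.01, adjusted p = 0.908). Xrcc4 overlaps Tmem167 at their starts, with 112 exon bases in common (0.06, adjusted p = 0.44), and Desi1 lies within the annotated span of Xrcc6 on the other strand, with 344 exon bases in common (-0.10, adjusted p = 0.273). Snu13 encodes a protein of small ribonucleoproteins and ends near the end of Xrcc6. It was higher by 0.18 on the log2 scale (adjusted p = 0.0351 in edgeR). That call was lost without any single library but control siRNA replicate 3 (0.0603 to 0.188) and with no filter (0.0709). Slc23a3 beside Nhej1 and Clic3 within Paxx were near 1 CPM and did not pass the threshold (adjusted p of 0.938 and 0.945).

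Changes in the wider pathway were small as well. Of 34 further genes, 31 could be tested, and 5 were lower and 1 higher (19.4%, against 22.4% of all tested genes), with a median log2 fold change of -0.09. The groups did not overlap for 54.8% of the 31, against 38.1% of all tested genes. Without Irf1 siRNA replicate 1 or control siRNA replicate 2, 3 genes passed in place of 6. Not tested were Rag1, Rag2 and Dntt, lymphocyte genes of antigen receptor assembly, with 3, 0 and 1 counts over all 6 libraries. The Irf1 siRNA libraries were also lower in markers of dividing cells, of which 7 of 12 fell (Cdk1, Top2a, Rrm2, Bub1, Ccnb1, Aurkb and Mki67) and 0 rose, with a summed level of 978 to 1050 CPM with Irf1 siRNA against 1150 to 1320 CPM with control siRNA. The part of cell division in the values of the repair genes was not tested.

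Among 15 genes of break recognition and of the choice between repair pathways, 2 fell and 13 did not pass the threshold. That is 13.3% changed, against 22.4% of all tested genes. Groups did not overlap for 60% of the 15, against 38.1% of all tested genes. Rnf168, a ubiquitin ligase that marks chromatin at breaks, had 29.4, 33.8 and 32.1 CPM with Irf1 siRNA against 38.0, 41.2 and 39.8 CPM with control siRNA (log2 fold change -0.32, SE 0.07, adjusted p = 0.00404 in edgeR). Mdc1, which reads phosphorylated histone H2AX and brings the ligases to it, had 37.3, 38.6 and 41.5 CPM with Irf1 siRNA against 48.9, 44.5 and 47.5 CPM with control siRNA (log2 fold change -0.26, SE 0.07, adjusted p = 0.00923). The groups were apart for both genes, and both calls held in all 13 alternatives. Trp53bp1, the mediator that holds back end resection, gave -0.11 (adjusted p = 0.198), its partner Rif1 -0.15 (0.156), and the shieldin genes Shld1, Shld2 and Shld3 -0.22, -0.12 and 0.14 (0.385, 0.409 and 0.685).

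Of 8 tested genes for accessory end processing and its modulators, 1 fell and 1 rose (25%, against 22.4% of all tested genes). Groups did not overlap for 50% of the 8, against 38.1% of all tested genes. Wrn, a helicase and exonuclease that works with Ku, had 11.5, 15.2 and 13.3 CPM with Irf1 siRNA against 15.6, 16.5 and 18.0 CPM with control siRNA (log2 fold change -0.32, SE 0.10, adjusted p = 0.0337 in edgeR). Tdp2, which removes topoisomerase II remnants from ends, had 31.8, 33.2 and 28.9 CPM with Irf1 siRNA against 28.8, 25.8 and 26.1 CPM with control siRNA (log2 fold change 0.22, SE 0.08, adjusted p = 0.0463). For both genes the groups were just apart. The Wrn call was lost without Irf1 siRNA replicate 1 or 3 or control siRNA replicate 2 or 3 (adjusted p of 0.0769 to 0.126) and with library totals alone (0.0704). Tdp2 no longer passed when Irf1 siRNA replicate 1 or 2 or control siRNA replicate 2 or 3 was left out (0.0977 to 0.16), nor in DESeq2 (0.0633) or with no filter (0.0592).

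Alternative end joining, the backup route that uses short homologies, was represented by 8 genes, of which 2 fell. That share of 25% compares with 22.4% of all tested genes. Groups did not overlap for 50% of these 8, against 38.1% of all tested genes. Lig3, the ligase of that route and of single-strand break repair, had 58.1, 58.0 and 60.9 CPM with Irf1 siRNA against 70.1, 67.9 and 71.0 CPM with control siRNA (log2 fold change -0.24, SE 0.06, adjusted p = 0.00615 in edgeR), a call that held in all 13 alternatives. Parp2, a sensor of strand breaks, had 28.5, 29.1 and 27.4 CPM with Irf1 siRNA against 33.9, 32.5 and 32.1 CPM with control siRNA (log2 fold change -0.21, SE 0.07, adjusted p = 0.0293). The groups did not overlap for either gene. Parp2 no longer passed when Irf1 siRNA replicate 1 or 3 or control siRNA replicate 1 or 2 was left out (adjusted p of 0.0524 to 0.117), with DESeq2 (0.0529), with upper-quartile scaling (0.052) and with library totals alone (0.0609). Polq, the polymerase that defines the route, gave a log2 fold change of -0.26 with overlapping groups (95% interval -0.49 to -0.02, adjusted p = 0.107).

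**Figure D4:**
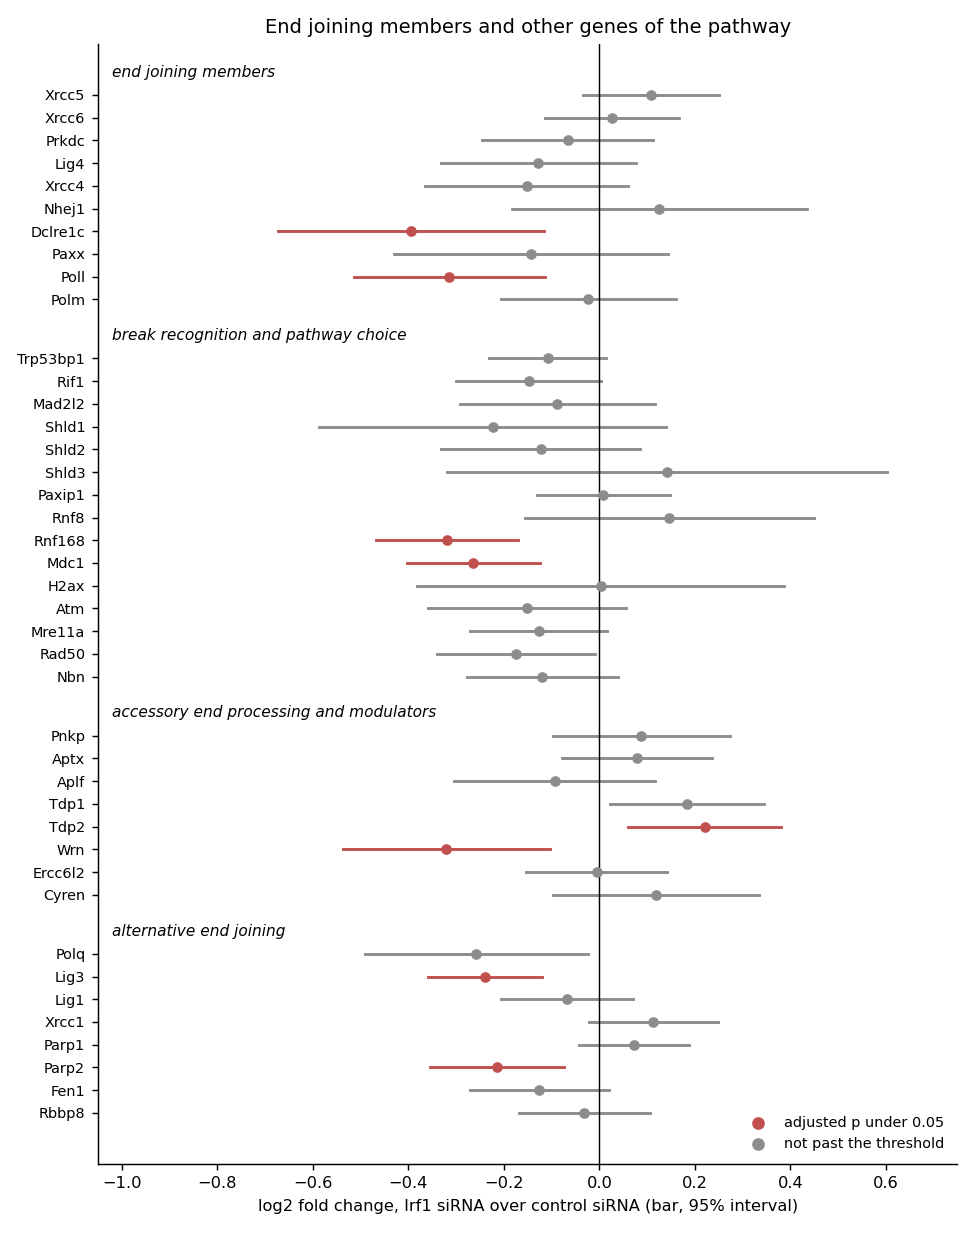
Log2 fold change of Irf1 siRNA over control siRNA (horizontal axis) with its 95% interval for the 10 end joining members and the 31 tested genes of the wider pathway, red where the adjusted p was under 0.05. Red points are Dclre1c and Poll among the members and Rnf168, Mdc1, Wrn, Lig3, Parp2 and, as the only red point right of 0, Tdp2 in the wider pathway.

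**Figure D5:**
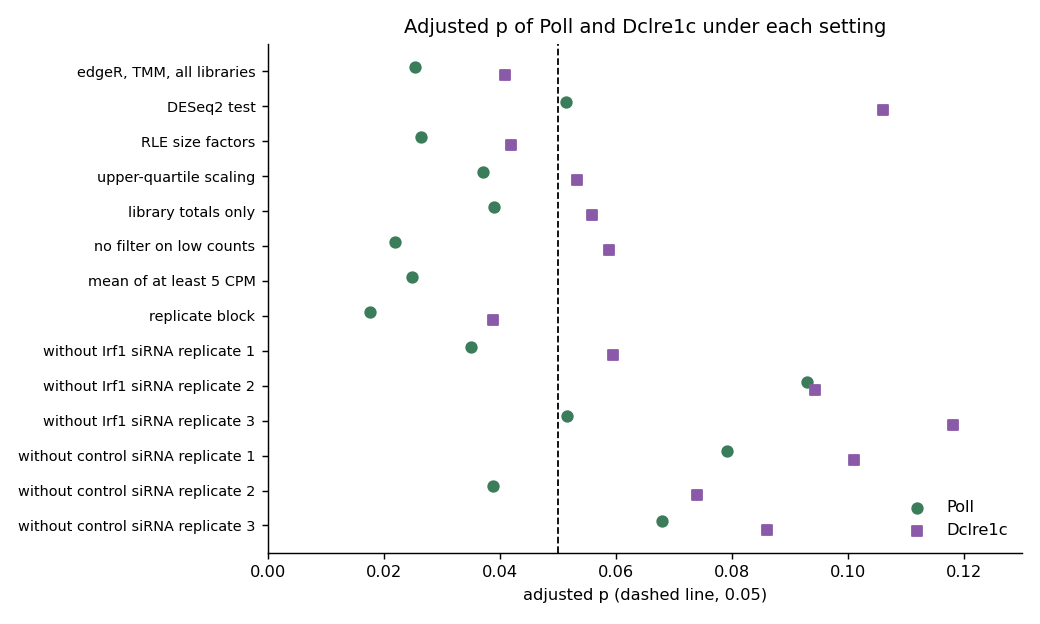
Adjusted p (horizontal axis, dashed line at 0.05) of Poll and Dclre1c under the reported fit and each alternative, 1 row a setting. Dclre1c has no point at the 5 CPM filter, which it did not pass. The points of Dclre1c lie right of the line in 10 of 12 alternatives and those of Poll in 5 of 13.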

How the data were processed

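Libraries were made with a stranded kit for polyadenylated RNA, per the labels' protocols. The authors deposited raw, whole-number read counts per gene, 1 table a library. Per the submitters' processing notes, the tools were FastQC, Trimmomatic 0.39 (a read trimmer) and STAR (an aligner), with genome build GRCm39 (mm39). The sources used here do not give the counting tool, annotation or strand setting, so genes that share exon bases can share reads.

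The tests ran in edgeR 4.0.16 under R 4.3.3, with filterByExpr (14683 genes kept), TMM scaling, and the quasi-likelihood test (glmQLFit robust, glmQLFTest, two-sided) across all genes with the group as the only term, Benjamini-Hochberg adjusted, changed below 0.05. Standard errors are the absolute log2 fold change over the square root of F, and intervals are 95%. CPM values are TMM-normalised. Alternatives were DESeq2 1.42.0, other scalings and filters, a replicate block and leaving out each library. Ratios used counts + 0.5 and exact permutation tests. GENCODE M21 and RefSeq (both GRCm38) were joined by gene identifier (99.8% of tested genes) or symbol, and no coordinate was converted. Members and gene lists were chosen with earlier results of these data known. All members are named, with Irf1, every wider pathway gene that changed and some that background needs. Neighbours, words and 2 of the ratios were added after the values were seen.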

Additional observations from a re-analysis of the deposited data

How the results depend on the processing

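The count of changed end joining genes, 2, rested on calls near the threshold. It was 0 with DESeq2 and 1 (Poll) with upper-quartile scaling, with library totals alone, with no filter on low counts and with a mean of at least 5 CPM, a filter that Dclre1c and Nhej1 do not pass. Leaving out 1 library gave 0 to 1 changed members, 3 to 7 changed genes of the wider pathway (6 with all libraries), 2235 to 3114 changed genes in all (3289) and 959 to 1398 higher genes (1522), with the fewest, 959 and 980, without Irf1 siRNA replicate 3 and control siRNA replicate 2. No member was called under any alternative but Poll and Dclre1c. Signs of members turned only near 0: without single libraries the log2 fold change ran from -0.0097 (without control siRNA replicate 1) to 0.064 for Xrcc6, from -0.28 to 0.0062 (without Irf1 siRNA replicate 2) for Paxx and from -0.064 to 0.015 (without control siRNA replicate 3) for Polm, and Polm gave 0.0027 with upper-quartile scaling and 1.8e-05 with library totals alone. Irf1 stayed between -1.17 and -1.04 (log2). The ratio of Lig4 to Xrcc4 ranged from -0.10 to 0.20 (log2 difference) without single libraries. The replicate number as a block gave 2 members, 6 wider pathway genes and 3728 genes in all. Same-numbered libraries did not deviate together in every pair (correlations 0.195, -0.045 and 0.052), so the numbers were not taken to pair the samples. Dclre1c rested on 84 to 101 counts with Irf1 siRNA and 133 to 145 with control siRNA.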
